A study of Homo sapiens with 4 samples.

Results

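The ADAM and ADAMTS proteases were taken as every row of the count tables whose symbol is ADAM or ADAMTS followed only by digits, which gave 41 genes, 22 ADAM and 19 ADAMTS, of the 23228 genes listed. They were compared between ES2 cells, an established human ovarian cancer cell line, that received vehicle and ES2 cells that received liquiritigenin (Liq), a plant flavanone the study used as an agonist of estrogen receptor beta. Both groups were grown in phenol red-free medium with charcoal-treated serum and were harvested after 24 h. The dose of Liq was 100 μM according to the methods of the study. Each group had 2 samples, and nothing in the labels says whether they came from separate cultures, so p-values measure the spread between these samples, which may be technical, in a single line.

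ADAM proteins are membrane-anchored proteins with a metalloprotease and a disintegrin domain. The catalytic members, with ADAM10 and ADAM17 the most studied, cut the outer parts of other membrane proteins from the cell surface, a step called shedding that releases growth factors and cytokines and starts Notch signaling. ADAMTS proteins are secreted relatives with thrombospondin repeats that cut matrix proteoglycans, procollagens and plasma proteins. In tumors both families are known for their part in growth factor release, invasion and remodeling of the matrix.

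Reads counted on genes numbered 34573053 to 48933893 per sample, and 13546 genes passed the filter on low counts and were tested across the whole table with edgeR's quasi-likelihood test. Levels are given as CPM, counts scaled to a common library size with TMM factors, and a level given per kilobase is CPM divided by the length of a gene's annotated exons. The 2 samples of a group resembled each other more than samples of different groups, with a chi-square per degree of freedom of 6.33 and 11.1 within and 58.4 to 71.4 between groups, so no library was a copy of another. VIM, KRT18 and KRT7 were abundant in all samples while the epithelial genes EPCAM and MUC16 had at most 3 counts and the Müllerian factor PAX8 had 12 to 49. Of 9 markers of immune, endothelial and red blood cells, 7 were below the filter and only CSF1R and CDH5 were tested, with CDH5 at 46.4 to 51.8 CPM on average. The receptor gene ESR2 was below the filter, with 4 and 7 counts in vehicle and 5 and 14 in Liq. ESR1, the gene of the other estrogen receptor, had 22 and 17 counts in vehicle and 19 and 34 in Liq. It was tested and did not pass (adjusted p = 0.5539, edgeR).

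Of the 41 genes, 26 passed the filter, 6 had a few counts and 9 had none. Among the 26, 8 rose and 5 fell at an adjusted p-value under 0.05, and 13 did not pass the test. This was 30.8% higher and 19.2% lower, beside 12.6% and 11.3% of all tested genes. A change of at least 1.5-fold, the threshold of the study, was met by 3 risers and 3 fallers, 11.5% of the 26 in each direction against 4.29% of all tested genes for increases and 2.16% for decreases. All 6 lay under 10 CPM, as did 13 of the 26. Among those 13 the shares at 1.5-fold were 23.1% higher and 23.1% lower, beside 11.5% and 4.02% of all tested genes under 10 CPM. The counts were not fixed. With all samples kept, the number that fell was 3 with upper-quartile normalization and 3 with the DESeq2 Wald test. They also shifted in fits that left out 1 sample. Such a fit has 1 sample in a group, so a shift in its counts cannot show that a call depended on that sample. The median log2 fold change of the 26 was 0.10, beside 0.01 for all tested genes. The groups did not overlap for 20 of the 26 genes, 11 with Liq higher and 9 with Liq lower, and this was the case for 31.5% and 30.2% of all tested genes. The smallest p that 2 samples against 2 allow in an exact permutation test is 0.3333, and the p-values given here therefore lean on the variation pooled over genes by edgeR. In bulk RNA, a smaller fraction of cells that express a gene and less of its RNA in each cell cannot be told apart.

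The branches of the family differed in their counts of calls, without a test of that difference. Of 13 tested ADAM genes 5 rose and 1 fell, and the median log2 fold change was 0.26. Of 13 tested ADAMTS genes 3 rose and 4 fell, with a median of -0.13. The shares were 38.5% higher and 7.69% lower for ADAM and 23.1% higher and 30.8% lower for ADAMTS. Over all tested genes they were 12.6% and 11.3%. The summed level of the ADAM genes was 768 and 772 CPM in vehicle and 835 and 864 CPM in Liq. That of the ADAMTS genes was 665 and 706 CPM in vehicle and 563 and 537 CPM in Liq. ADAMTS1 alone went from 491 and 527 CPM in vehicle to 359 and 346 CPM in Liq, a larger decrease than that of the sum. The other ADAMTS genes together therefore did not fall.

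**Figure D1:**
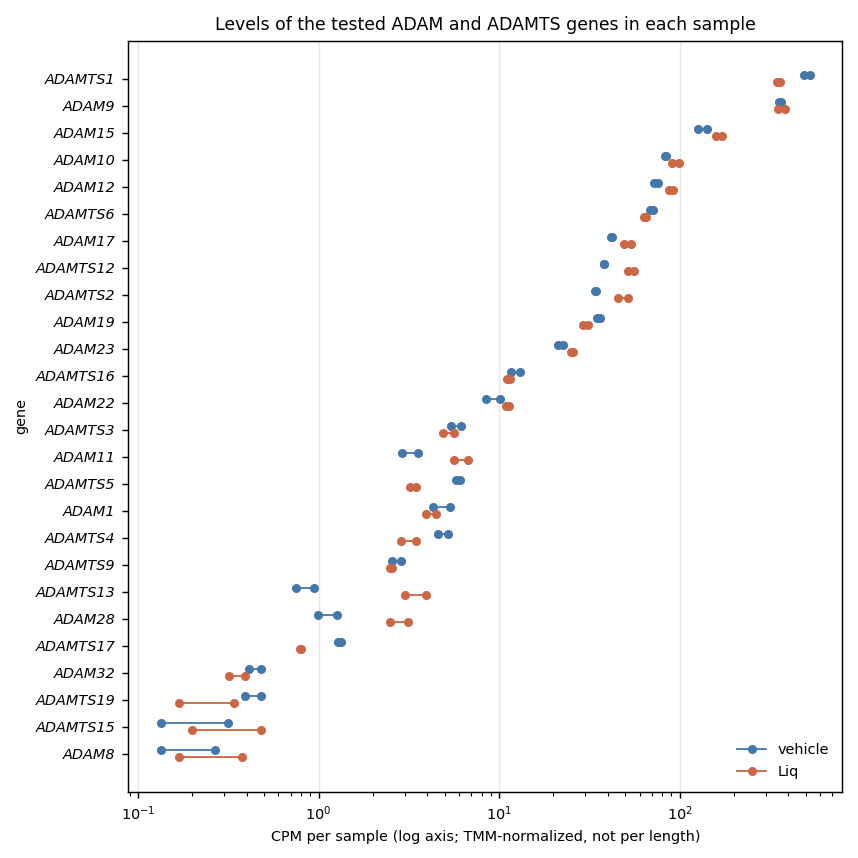
Level of each of the 26 tested genes in each sample, in CPM on a log axis, with vehicle in blue and Liq in orange and a line joining the 2 samples of a group. ADAMTS1 and ADAM9 stood at 346 CPM or more in every sample, and ADAM32, ADAMTS19, ADAMTS15 and ADAM8 stayed under 0.5 CPM.

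Expression was concentrated in a few genes. ADAMTS1, ADAM9, ADAM15, ADAM10 and ADAM12 together took 79.7% of the counts of the family in each vehicle sample, 76.0% in Liq replicate 1 and 76.9% in Liq replicate 2. Per kilobase the highest vehicle level was that of ADAMTS1 at 69.7, followed by ADAM9 and ADAM15 at 20.3 each, ADAMTS6 at 8.14, ADAM12 at 7.46 and ADAM10 at 5.25. The levels of ADAM9 and ADAM15 could not be ordered on this scale. With the longest transcript as the length, the values were 87.5 for ADAMTS1, 50.9 for ADAM9, 29.7 for ADAM15, 9.53 for ADAMTS6, 9.28 for ADAM12 and 7.52 for ADAM10, so ADAM9 stood above ADAM15 with this length only, and the other 4 kept their places.

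The shedding proteases ADAM17, ADAM15 and ADAM12 rose by less than 1.5-fold. ADAM17 (chromosome 2 from 9628615 to 9696861, GRCh37) is the enzyme that releases TNF and many EGF receptor ligands, with 1725 and 1580 counts in vehicle and 1749 and 2688 in Liq. After scaling it had 42.0 and 42.2 CPM in vehicle and 49.2 and 53.6 CPM in Liq. Both Liq samples lay above both vehicle samples, with a log2 fold change of 0.29 (± 0.08 SE, edgeR adjusted p = 0.01306). ADAM15 (chromosome 1 from 155023042 to 155035251), a protease that also binds integrins, had 5814 and 4730 counts in vehicle and 6101 and 8033 in Liq, or 141 and 126 CPM in vehicle and 172 and 160 CPM in Liq. The groups did not overlap, and the log2 fold change was 0.31 (± 0.08 SE, edgeR adjusted p = 0.003803). ADAM12 (chromosome 10 from 127700950 to 128077046), which is known to release HB-EGF and to mark invasive tumors, had 2954 and 2830 counts in vehicle and 3252 and 4392 in Liq, or 71.9 and 75.6 CPM in vehicle and 91.5 and 87.5 CPM in Liq, again without overlap. Its log2 fold change was 0.28 (± 0.08 SE, edgeR adjusted p = 0.009027). With 1 sample left out, the log2 fold change ranged from 0.22 to 0.35 for ADAM17. The range was 0.23 to 0.39 for ADAM15 and 0.24 to 0.32 for ADAM12. None of the 3 calls was kept in every such fit. These fits leave 1 sample in a group, and the cause of the losses was not tested. Exons of ADAM17 share 10.3% of their bases with IAH1 on the opposite strand, and the strand setting of the counting is not given in the sources used here.

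ADAM28 (chromosome 8 from 24151582 to 24216527), a lymphocyte-associated protease that can also be made by carcinoma cells, was the ADAM gene with the largest increase. Its counts were 52 and 37 in vehicle and 112 and 125 in Liq, which is 1.26 and 0.988 CPM against 3.15 and 2.49 CPM. The lowest Liq sample was above the highest vehicle sample, and the level rose 2.46-fold, a log2 fold change of 1.30 (± 0.22 SE, edgeR adjusted p = 7.897e-05). Per kilobase it remained a low gene, at 0.120 in vehicle and 0.301 in Liq. The T cell marker CD3E had 0 counts in each sample and the leukocyte marker PTPRC had 1 count in Liq replicate 2 and 0 in the other samples.

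ADAM19 (chromosome 5 from 156822542 to 157002783), a protease that processes neuregulin, was the only ADAM gene among the 13 tested to fall. It had 1426 and 1355 counts in vehicle and 1101 and 1455 in Liq, or 34.7 and 36.2 CPM in vehicle and 31.0 and 29.0 CPM in Liq, without overlap. The log2 fold change was -0.24 (± 0.09 SE, edgeR adjusted p = 0.04805), just inside the threshold. The call was lost in 6 of the 11 alternatives, among them upper-quartile normalization (adjusted p = 0.08315, edgeR) and the DESeq2 Wald test (0.0709). It was also lost without vehicle replicate 1, without vehicle replicate 2 and without Liq replicate 2, fits that leave 1 sample in a group. With 1 sample left out the log2 fold change was -0.29 to -0.20.

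The other shedding proteases did not pass the test. ADAM10, the main enzyme that cuts Notch receptors and cadherins, had 84.4 and 83.4 CPM in vehicle and 90.5 and 98.8 CPM in Liq. The groups did not overlap, but the log2 fold change of 0.18 had an adjusted p of 0.09893 (edgeR) and a 95% interval of 0.02 to 0.33. It passed with offsets that follow the expression level (adjusted p = 0.03766, edgeR), with the replicate number as a block (0.01761) and without Liq replicate 1 (0.02005). ADAM9, the most abundant ADAM gene by counts, was at 354 and 366 CPM in vehicle and 350 and 385 CPM in Liq. Its groups overlapped, and the 95% interval of the log2 fold change was -0.11 to 0.17, under 1.5-fold in either direction. ADAM8, which is found on leukocytes and in some tumors, had 11 and 5 counts in vehicle and 6 and 19 in Liq, and its interval of -0.60 to 1.60 holds changes of over 1.5-fold in either direction. ADAM33 had 2 counts in Liq replicate 2 and 0 elsewhere and was not tested.

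ADAM11, ADAM22 and ADAM23 form a group without a working protease site that acts in adhesion and as receptors, mainly in the nervous system. ADAM11 (chromosome 17 from 42836356 to 42859214) had 147 and 108 counts in vehicle and 238 and 283 in Liq. This was 3.58 and 2.88 CPM against 6.69 and 5.64 CPM, with both Liq samples above both vehicle samples. The level rose 1.89-fold, a log2 fold change of 0.92 (± 0.15 SE, edgeR adjusted p = 7.888e-05). ADAM22, a receptor for the secreted protein LGI1, had 8.41 and 10.2 CPM in vehicle and 10.9 and 11.3 CPM in Liq, and ADAM23, which binds the same ligand, had 21.2 and 22.5 CPM in vehicle and 25.2 and 25.6 CPM in Liq. In both genes the groups did not overlap, but their log2 fold changes of 0.26 and 0.22 did not pass (adjusted p = 0.1024 and 0.09534, edgeR). The replicate block gave ADAM23 an adjusted p of 0.03715 (edgeR).

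Genes known mainly from testis, sperm and epididymis were nearly silent. ADAM2, ADAM7, ADAM18, ADAM29 and ADAM30 and the pseudogene ADAM6 had 0 counts in all 4 samples. ADAM20 had 0 and 1 counts in vehicle and 0 and 2 in Liq, and ADAM21 had 5 and 2 in vehicle and 10 and 9 in Liq, both under the filter. ADAM32 was the only tested member, with 17 and 18 counts in vehicle and 14 and 16 in Liq, and its change did not pass (log2 fold change -0.34, 95% interval -1.16 to 0.48, adjusted p = 0.5709, edgeR). Its locus starts 1545 bases past the end of ADAM9 on the same strand, and ADAM9 had at least 12439 counts in each sample. The pseudogene ADAM1 had 4.28 and 5.32 CPM in vehicle and 4.47 and 3.94 CPM in Liq, which overlapped (adjusted p = 0.3821, edgeR). At this depth 3 counts, the most that a count of 0 allows, are 0.0598 to 0.0844 CPM per library.

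**Figure D2:**
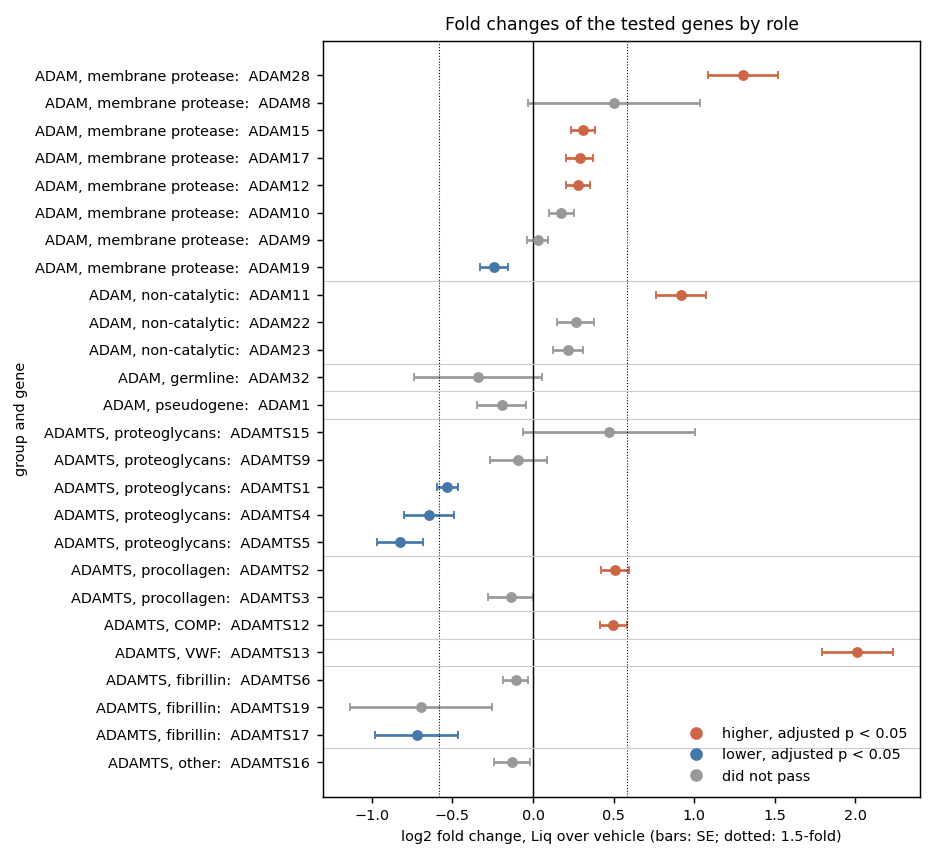
Log2 fold change of Liq over vehicle for each of the 26 tested genes, grouped by role, with bars for the SE, dotted lines at 1.5-fold, orange for genes that rose, blue for genes that fell and grey for those that did not pass. ADAMTS1, ADAMTS4 and ADAMTS5 lay together on the lower side between -0.83 and -0.53, and ADAMTS13 stood at 2.01.

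Among the ADAMTS genes, the proteoglycanases ADAMTS1, ADAMTS4 and ADAMTS5 fell. These enzymes cut versican and aggrecan, and ADAMTS4 and ADAMTS5 are known as the main aggrecanases of cartilage. ADAMTS1 (chromosome 21 from 28208074 to 28217728, minus strand) had 20171 and 19742 counts in vehicle and 12748 and 17347 in Liq. After scaling this was 491 and 527 CPM against 359 and 346 CPM, so both Liq samples were below both vehicle samples. The log2 fold change was -0.53 (± 0.07 SE, edgeR adjusted p = 9.37e-07), or 1.45-fold lower, under the 1.5-fold threshold. Its share of the counts of all 41 genes was 34.2% and 35.7% in vehicle and 25.6% and 24.7% in Liq.

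ADAMTS5 (chromosome 21 from 28290241 to 28339407, minus strand), the neighbor of ADAMTS1 at a distance of 72.5 kb, had 237 and 227 counts in vehicle and 124 and 161 in Liq. Its level was 5.76 and 6.06 CPM against 3.49 and 3.21 CPM, without overlap. This was 1.77-fold lower, a log2 fold change of -0.83 (± 0.15 SE, edgeR adjusted p = 0.0001403). ADAMTS4 (chromosome 1 from 161154092 to 161168844) had 189 and 196 counts in vehicle and 124 and 143 in Liq, or 4.60 and 5.24 CPM against 3.49 and 2.85 CPM, also without overlap. Its log2 fold change was -0.65 (± 0.16 SE, edgeR adjusted p = 0.003792), or 1.56-fold lower. Without vehicle replicate 2, which left 1 vehicle sample, the log2 fold change was -0.55 and the call was lost.

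The other proteoglycanases did not pass or were not counted. ADAMTS9, which also acts in cilium formation and in transport from the endoplasmic reticulum, had 2.85 and 2.54 CPM in vehicle and 2.50 and 2.55 CPM in Liq, which overlapped (95% interval of the log2 fold change -0.46 to 0.27). ADAMTS15 had 13 and 5 counts in vehicle and 17 and 10 in Liq. It was tested on few reads, with a 95% interval of -0.62 to 1.56. ADAMTS20 had 1 count in Liq replicate 2 and 0 elsewhere, and ADAMTS8, which lies 20.0 kb from ADAMTS15 on chromosome 11, had 0 counts in each sample. Of the 7 genes of this role, 5 were tested, 3 fell and 0 rose. With 5 genes this was 60% lower and 0% higher, beside 11.3% and 12.6% of all tested genes.

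ADAMTS13, the protease that cuts von Willebrand factor in plasma, had the largest change of the 26. Its counts were 39 and 28 in vehicle and 140 and 152 in Liq. The level was 0.949 and 0.748 CPM in vehicle and 3.94 and 3.03 CPM in Liq, with the groups far apart. It rose 4.03-fold, a log2 fold change of 2.01 (± 0.22 SE, edgeR adjusted p = 1.719e-07), and the 95% interval of the log2 fold change was 1.56 to 2.47. Per kilobase the level was 0.149 in vehicle and 0.610 in Liq, far below the 48.2 of ADAMTS1 in Liq. Its gene (chromosome 9 from 136279478 to 136324524, plus strand) shares no annotated exon with another gene. VWF, the substrate, had 7 and 2 counts in vehicle and 1 in each Liq sample and was not tested.

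**Figure D3:**
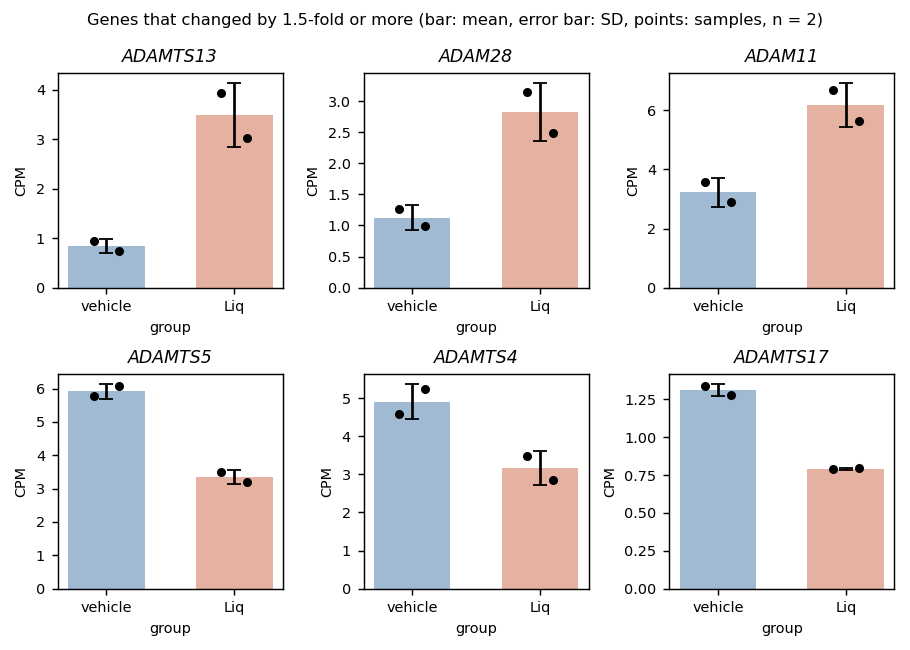
Level in CPM of the 6 genes that changed by 1.5-fold or more, with bars for the group mean from 0, error bars for the SD (n = 2) and points for the samples. In every panel the 2 Liq points lie on the same side of the 2 vehicle points, and no mean exceeds 6.17 CPM.

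ADAMTS2 and ADAMTS12 rose by less than 1.5-fold. ADAMTS2 (chromosome 5 from 178537854 to 178772462), which removes the N-terminal propeptide of fibrillar procollagens, had 1400 and 1288 counts in vehicle and 1847 and 2292 in Liq, or 34.0 and 34.4 CPM in vehicle and 51.9 and 45.7 CPM in Liq. The groups did not overlap, and the log2 fold change was 0.51 (± 0.09 SE, edgeR adjusted p = 0.0001176), or 1.42-fold. ADAMTS12 (chromosome 5 from 33523640 to 33892124), which like ADAMTS7 cuts the cartilage protein COMP, had 1569 and 1420 counts in vehicle and 1986 and 2593 in Liq, or 38.2 and 37.9 CPM in vehicle and 55.9 and 51.7 CPM in Liq, again without overlap. Its log2 fold change was 0.50 (± 0.08 SE, edgeR adjusted p = 8.864e-05), or 1.41-fold. Of their close relatives, ADAMTS3 had 6.15 and 5.45 CPM in vehicle and 4.87 and 5.62 CPM in Liq, which overlapped (adjusted p = 0.4997, edgeR), ADAMTS14 had 0 counts in each sample, and ADAMTS7 had 4 and 0 counts in vehicle and 0 and 1 in Liq.

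Of 4 members tied to fibrillin microfibrils 3 were tested and 1 fell, which is 33.3% of 3 genes beside 11.3% of all tested genes. ADAMTS17 (chromosome 15 from 100511642 to 100882210) had 55 and 48 counts in vehicle and 28 and 40 in Liq, or 1.34 and 1.28 CPM against 0.787 and 0.797 CPM. The groups did not overlap, and the log2 fold change was -0.72 (± 0.26 SE, edgeR adjusted p = 0.04338), 1.65-fold lower. The call was lost with upper-quartile normalization (adjusted p = 0.05469, edgeR) and with the DESeq2 Wald test (0.2501). It was also lost with each sample left out in turn, which leaves 1 sample in a group, while the log2 fold change stayed between -0.75 and -0.69. ADAMTS19 had 16 and 18 counts in vehicle and 6 and 17 in Liq (adjusted p = 0.2664, edgeR). ADAMTS6, the fourth-highest gene of the family per kilobase, had 68.2 and 71.2 CPM in vehicle and 65.4 and 63.9 CPM in Liq, and ADAMTS16 had 11.6 and 13.1 CPM in vehicle and 11.5 and 11.0 CPM in Liq. Neither passed (adjusted p = 0.3322 and 0.4134, edgeR), although their groups did not overlap. ADAMTS18 had at most 2 counts in a sample and ADAMTS10 had 0 in each. EIF4A1, a translation factor gene that every cell uses, also had 0 counts in each sample, so a 0 in these tables says only that no read was assigned to the gene.

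Promoter sequences are shown for ADAMTS13, which had the largest change at 4.03-fold, and for ADAMTS2 and ADAMTS12, which rose less, by 1.42-fold and 1.41-fold. The RefSeq promoter table held 25 windows of 300 bases around the annotated start for 24 of the 41 genes, among them 8 of the 13 that passed the test. ADAM11, ADAM28, ADAMTS1, ADAMTS4 and ADAMTS5 had no entry. Each printed window matched the GRCh37 genome at 1 place, at chr9:136287237-136287536 on the plus strand for ADAMTS13, at chr5:178772413-178772712 on the minus strand for ADAMTS2 and at chr5:33892046-33892345 on the minus strand for ADAMTS12. They are written 5′ to 3′, and capitals mark matches to the motifs named in the next paragraph.
ADAMTS13: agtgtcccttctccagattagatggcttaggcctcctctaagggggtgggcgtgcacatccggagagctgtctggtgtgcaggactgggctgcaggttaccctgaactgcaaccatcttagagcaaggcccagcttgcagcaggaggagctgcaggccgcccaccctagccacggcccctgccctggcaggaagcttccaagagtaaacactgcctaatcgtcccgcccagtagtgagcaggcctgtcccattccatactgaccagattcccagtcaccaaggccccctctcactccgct
ADAMTS2: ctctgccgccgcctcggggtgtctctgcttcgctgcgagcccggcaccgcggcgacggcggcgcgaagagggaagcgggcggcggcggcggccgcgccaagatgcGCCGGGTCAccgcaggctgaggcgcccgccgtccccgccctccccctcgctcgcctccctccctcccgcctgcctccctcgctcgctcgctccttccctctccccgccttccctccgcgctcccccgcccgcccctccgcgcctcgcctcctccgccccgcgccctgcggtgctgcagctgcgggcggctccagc
ADAMTS12: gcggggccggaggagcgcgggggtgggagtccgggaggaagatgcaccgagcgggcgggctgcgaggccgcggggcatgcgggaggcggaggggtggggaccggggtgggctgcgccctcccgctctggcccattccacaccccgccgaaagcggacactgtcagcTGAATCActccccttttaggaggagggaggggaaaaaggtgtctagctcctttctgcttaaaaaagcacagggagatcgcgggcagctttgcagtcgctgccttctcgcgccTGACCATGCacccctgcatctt

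The motifs were searched on both strands. The AP-1 motif TGANTCA was in the window of ADAMTS12 and in no other of the 25, while 7.71% of all 35116 promoter windows in the table held it. The core of the antioxidant response element, TGACNNNGC, which can share bases with an AP-1 match, was in the windows of ADAMTS12 and ADAMTS2 and in 13.3% of all windows. The NF-κB motif was in 0 of the 25 and in 5.91% of all windows, and the full estrogen response element GGTCANNNTGACC was in 0 and in 0.057%. The TATA box TATAAA was in the windows of ADAM21 and of ADAMTS10 and in 11.5% of all windows. The window of ADAMTS13, which lies inside the annotated span of the gene and not at its first base, held none of these motifs. The median GC content of the 25 windows was 70.7%, beside 58.7% for all windows.

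Regulators that mature or guide the ADAM proteases moved in both directions. Of 18 listed genes 16 were tested, of which 4 rose, 2 fell and 10 did not pass, with a median log2 fold change of 0.18. The shares were 25% higher and 12.5% lower, the latter close to the 11.3% of all tested genes that fell, while 12.6% of all tested genes rose. PLK2, a kinase reported to act on ADAM17 among many other targets, had the largest change, from 157 to 294 CPM on average (log2 fold change 0.90 ± 0.07 SE, edgeR adjusted p = 1.927e-10). RHBDF2 and RHBDF1 encode the inactive rhomboids iRhom, partners that carry ADAM17 to the cell surface, and they went opposite ways. RHBDF2 rose with a log2 fold change of 0.44 (± 0.10 SE, edgeR adjusted p = 0.001499) and RHBDF1 fell with one of -0.31 (± 0.10 SE, edgeR adjusted p = 0.02297). The sorting nexin SNX9 fell with a log2 fold change of -0.25 and the adaptor SH3PXD2A, which binds the tails of several ADAM proteins, rose with one of 0.23 (adjusted p = 0.0134 and 0.01738, edgeR). FURIN, which removes the propeptide of ADAM zymogens, had 72.9 CPM in vehicle and 69.2 CPM in Liq on average and did not pass (adjusted p = 0.5374, edgeR).

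Of 7 inhibitor genes 5 were tested, of which 2 rose, 2 fell and 1 did not pass, with a median log2 fold change of 0.10. With 5 genes this was 40% in each direction, beside 12.6% higher and 11.3% lower over all tested genes. TIMP3, the tissue inhibitor that blocks ADAM17 and the aggrecanases, fell from 238 to 176 CPM on average (log2 fold change -0.43 ± 0.07 SE, edgeR adjusted p = 4.482e-05). TIMP1, an inhibitor of ADAM10 and of matrix metalloproteinases, fell from 380 to 282 CPM (log2 fold change -0.43 ± 0.07 SE, edgeR adjusted p = 9.778e-05). RECK, a membrane-anchored inhibitor, rose from 13.4 to 18.0 CPM (log2 fold change 0.43, adjusted p = 0.00274, edgeR), and PAPLN, which encodes the ADAMTS-like protein papilin, rose from 3.75 to 5.63 CPM (log2 fold change 0.59, adjusted p = 0.004953, edgeR). TIMP2 had a log2 fold change of 0.10 that did not pass.

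**Figure D4:**
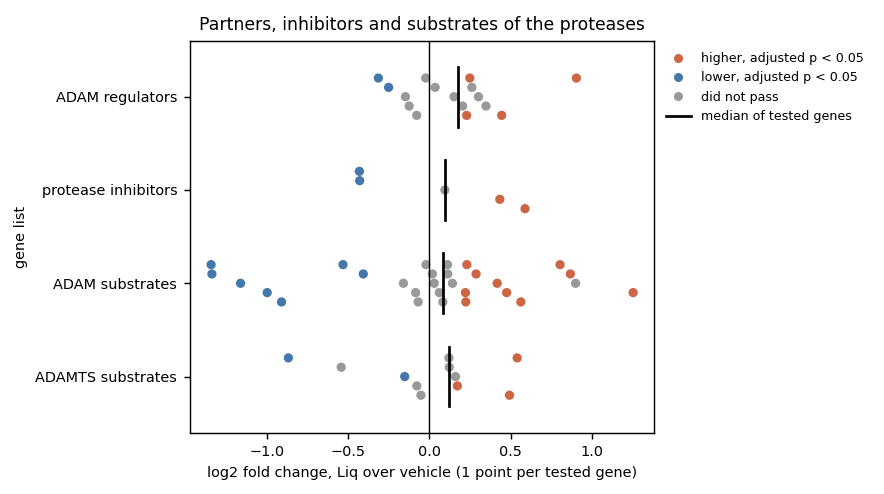
Log2 fold change of Liq over vehicle for each tested gene of the lists of regulators, inhibitors, ADAM substrates and ADAMTS substrates, with orange for genes that rose, blue for genes that fell, grey for those that did not pass and a black bar at the median. The medians lie between 0.08 and 0.18 while single genes reach -1.34 and 1.25.

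Of 42 membrane proteins known to be shed by ADAM proteases 29 were tested, of which 10 rose, 7 fell and 12 did not pass, with a median log2 fold change of 0.08. This was 34.5% higher and 24.1% lower, beside 12.6% and 11.3% of all tested genes. At 1.5-fold it was 10.3% higher and 17.2% lower, beside 4.29% and 2.16%. The lists of regulators, inhibitors, substrates and relatives were chosen with earlier results of these data known. Their shares therefore cannot test whether such genes changed more often than others. The largest decreases at 1.5-fold or more were those of the EGF receptor ligand EREG (log2 fold change -1.34), the growth factor receptor CSF1R (-1.34), the interleukin 6 receptor IL6R (-1.16), the adhesion molecule VCAM1 (-0.997) and the Notch ligand JAG1 (-0.91), with adjusted p-values of 3.225e-11 to 0.007349 (edgeR). CSF1R and IL6R had at most 36 and 46 counts in a sample. The increases at 1.5-fold or more were those of the KIT ligand KITLG (log2 fold change 1.25), the neural adhesion molecule NCAM1 (0.87) and the cytokine CSF1 (0.80), with adjusted p-values of 2.035e-10 to 1.25e-05 (edgeR). The receptor gene MET rose from 272 to 401 CPM on average (log2 fold change 0.56, adjusted p = 6.819e-07, edgeR). Other listed substrates that passed at under 1.5-fold included TNFRSF1A and CDH2, which rose (log2 fold change 0.42 and 0.22), and SDC4, which fell (-0.53). Their adjusted p-values were 0.0002726, 0.02645 and 1.037e-05 (edgeR). Among the 12 that did not pass, HBEGF, NOTCH1, NOTCH2 and APP had log2 fold changes of -0.07 to 0.14.

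Of 20 secreted substrates of ADAMTS proteases 11 were tested, of which 3 rose, 2 fell and 6 did not pass, with a median log2 fold change of 0.12. The shares were 27.3% higher and 18.2% lower, against 12.6% and 11.3% over all tested genes. TFPI2, a protease inhibitor that ADAMTS1 cuts, fell from 179 to 97.9 CPM on average (log2 fold change -0.87 ± 0.08 SE, edgeR adjusted p = 6.902e-09). The procollagen gene COL5A1 rose with a log2 fold change of 0.54, the fibrillin gene FBN1 with 0.49 and the procollagen gene COL1A1 with 0.17 (adjusted p = 6.22e-05, 2.228e-05 and 0.04572, edgeR). FN1, the fibronectin gene, fell with a log2 fold change of -0.15 from 7727 to 6954 CPM (adjusted p = 0.02367, edgeR). VCAN, the versican gene, had 62.6 CPM in vehicle and 59.2 CPM in Liq on average and did not pass (adjusted p = 0.56, edgeR), and ACAN, the aggrecan gene, had 0 counts in each sample. Of 14 listed relatives, mostly outside the rule but with ADAM1 and ADAM6 among them, 12 were in the tables and 6 were tested, of which 2 rose and 4 did not pass. For these 6 this was 33.3% higher and 0% lower, beside 12.6% and 11.3% of all tested genes. The ADAMTS-like genes have no protease domain, and ADAMTSL1 rose from 245 to 339 CPM (log2 fold change 0.47, adjusted p = 9.986e-06, edgeR) and ADAMTSL4 from 3.56 to 5.33 CPM (0.58, adjusted p = 0.004338), while ADAMTSL5 and ADAMTSL3 had log2 fold changes of 0.22 and 0.35 that did not pass.

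**Figure D5:**
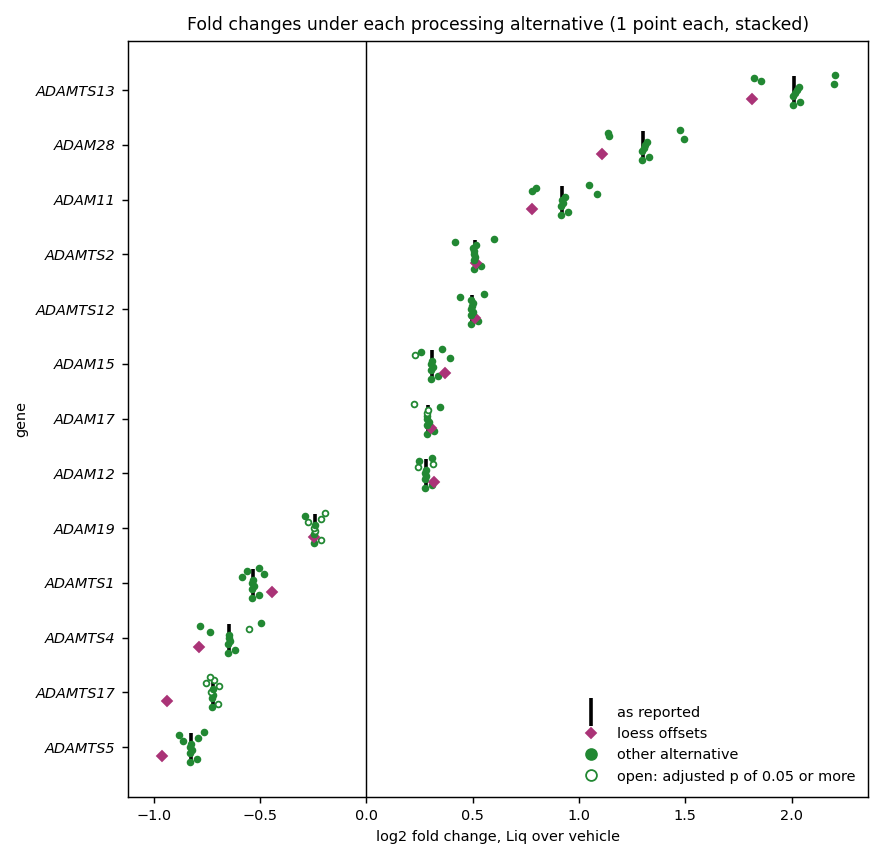
Log2 fold change of each of the 13 genes that passed the test, as reported (black bar) and under each of 11 processing alternatives, with magenta diamonds for offsets along the expression level and open points where the adjusted p was 0.05 or more. No point crosses 0, and the open points belong to ADAM15, ADAM17, ADAM12, ADAM19, ADAMTS4 and ADAMTS17.

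The low genes were also examined with offsets fitted along the expression level. The log2 fold change became 1.82 for ADAMTS13, 1.11 for ADAM28 and 0.78 for ADAM11, each still past the test (adjusted p = 1.518e-06, 0.0006047 and 0.0006804, edgeR). For the low genes that fell it became -0.96 for ADAMTS5, -0.79 for ADAMTS4 and -0.94 for ADAMTS17. The call of ADAMTS13, ADAM28, ADAM11, ADAMTS2, ADAMTS12, ADAMTS1 and ADAMTS5 held in all 11 alternatives.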

How the data were processed

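RNA sequencing was analysed for ES2 cells treated with vehicle or Liq, with 2 samples per group taken from the sample labels. The authors prepared TruSeq libraries and, as the labels state, read them as 100 bp single ends, aligned the reads to hg19 with TopHat2 2.0.8b and tallied them by gene symbol with HTSeq. The deposited values are raw counts, neither normalized nor pooled. Reads aligned to more than 1 place, 35.63% to 36.23% of those tallied, and reads on more than 1 gene are left out, so genes with close copies are undercounted. Tally lines stayed out of the tests.

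Tests used edgeR 4.0.16 under R 4.3.3 (filterByExpr at 10 counts and 15 in total, TMM, glmQLFit and glmQLFTest without a block, Benjamini-Hochberg over 13546 genes). The SE is the size of the log2 fold change divided by the square root of F, and 95% intervals use the t distribution of that fit. Alternatives were other normalizations, filters, thresholds and lengths, DESeq2 1.42.0, the replicate block and each sample left out. Scripts were tested on simulated data. Coordinates and exon lengths are from GENCODE on GRCh37, the same build as hg19, and promoters from RefSeq (GRCh38.p14), matched to GRCh37. Every gene of the rule is given, and from each companion list the 5 genes with the smallest p-value and those past 1.5-fold are named, with a few further known substrates added after their values were seen. The members, roles and lists were chosen from general knowledge with earlier results of these data known. Intervals and floors cover counting and replicate error only.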

Additional observations from a re-analysis of the deposited data

How the results depend on the processing

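Of the 11 alternatives per gene, the fold changes of the 26 tested genes gave 282 values, of which 257 kept direction and side of the threshold, 19 lost and 4 gained significance, and 2 changed sign. The changes of sign were in genes that did not pass. Across the fits that left out 1 sample, the log2 fold change ranged from -0.0429 to 0.0943 for ADAM9 and from -0.20 to 1.24 for ADAMTS15, which has few counts. With all settings at their reported values 8 genes rose and 5 fell, and the number that fell was 3 with upper-quartile normalization and 3 with the DESeq2 Wald test. With a sample left out, which leaves 1 sample in a group, the numbers that rose and fell shifted as well. At 1.5-fold, 3 genes fell as reported and 0 with a threshold of 2-fold. The cause of these shifts was not tested. With the replicate block 10 genes rose and 5 fell, all 13 reported calls among them. The numbers are only shared labels, and the deviations of same-numbered samples had a correlation of 0.177 across genes with 2 pairs. Offsets along the expression level moved the share of increases among all genes called at 1.5-fold from 66.5% to 47.0%, with 9 and 5 members called higher and lower. Over all genes 1712 rose and 1533 fell, against 805 and 608 without vehicle replicate 1, 866 and 676 without vehicle replicate 2, 1657 and 1575 without Liq replicate 1, 1966 and 1814 without Liq replicate 2 and 1086 rising with DESeq2, and the block gave 2474 falling. At 1.5-fold, 581 rose as reported and 350 with these offsets or 339 with DESeq2. The depth limits what can be said of genes with few counts, such as ADAM8, ADAMTS15 and ADAMTS19.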
